A study of Mus musculus with 6 samples.

Results

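The Cyp2 genes are the family of cytochrome P450 genes whose symbols begin with Cyp2 and a subfamily letter, here Cyp2a to Cyp2w. They were taken by symbol from the annotation of the array, which named 48 of them. Of these, 44 had probe sets (groups of probes for 1 stretch of a transcript) that named that gene alone, 344 probe sets in all, out of 20416 genes with such probe sets. The other 4, Cyp2a4, Cyp2a5, Cyp2c40 and Cyp2c69, were read only by probe sets shared with close relatives. The level of a gene was the mean log2 value of its own probe sets, and 33 of the 44 genes were bright enough to be tested among 15312 genes.

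Hepatocytes came from adult C57BL/6 mice of 2 groups, with 3 mice and 3 arrays each. The miR-143DOX mice were transgenic for a miR-143 allele that doxycycline switches on, and the control mice were their wildtype littermates. Both groups drank doxycycline at 4 mg/ml in 10% sucrose for 8 days, so the drug itself was common to all 6 animals. The sources used here give neither the promoter that drives the allele nor the number of founder lines, and the labels do not give the sex of the mice. How far miR-143 rose in these animals was not analysed here. The comparison asks which hepatocyte transcripts differ once miR-143, a microRNA that represses the messenger RNAs it pairs with, has been induced.

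Cyp2 enzymes sit in the membrane of the endoplasmic reticulum, hold a haem group, and take electrons from the reductase Por to oxidise drugs, steroids, bile acids, retinoids and fatty acids. Most of them lie in tandem arrays that arose by gene duplication, so neighbours are close in sequence. In the liver many are switched on by the nuclear receptors CAR (Nr1i3) and PXR (Nr1i2), several follow sex or the circadian clock, and many are strongest in the hepatocytes around the central vein.

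The bases just before the start site are shown for 6 genes on which the results below turn: the 4 that stood furthest from 0 for their error (Cyp2c55, Cyp2c70, Cyp2c68 and Cyp2a12), Cyp2c67, the near-copy beside Cyp2c68, and Cyp2b9, whose difference was the largest. The windows are the 250 bases upstream of the RefSeq start on GRCm38.p6, at chr19:39006769-39007018 (plus strand) for Cyp2c55, chr19:40187287-40187536 (minus) for Cyp2c70, chr19:39741102-39741351 (minus) for Cyp2c68, chr19:39649043-39649292 (minus) for Cyp2c67, chr7:27028840-27029089 (plus) for Cyp2a12 and chr7:26173159-26173408 (plus) for Cyp2b9. They read 5′ to 3′ on the strand of the gene, and capitals mark TATAAA (the TATA box), AGGTCA (the half-site of nuclear receptors) and CAAAGTCCA (a motif preferred by HNF4A), each on either strand.
Cyp2c55: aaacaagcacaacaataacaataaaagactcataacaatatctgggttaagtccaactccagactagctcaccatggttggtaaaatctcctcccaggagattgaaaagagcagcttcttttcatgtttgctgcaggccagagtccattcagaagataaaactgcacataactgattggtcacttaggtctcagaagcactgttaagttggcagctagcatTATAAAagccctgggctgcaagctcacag
Cyp2c70: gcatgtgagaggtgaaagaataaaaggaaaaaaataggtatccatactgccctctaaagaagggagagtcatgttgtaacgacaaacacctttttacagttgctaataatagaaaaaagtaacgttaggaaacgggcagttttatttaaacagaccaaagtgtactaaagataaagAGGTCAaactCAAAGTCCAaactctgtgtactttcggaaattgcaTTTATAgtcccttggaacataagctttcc
Cyp2c68: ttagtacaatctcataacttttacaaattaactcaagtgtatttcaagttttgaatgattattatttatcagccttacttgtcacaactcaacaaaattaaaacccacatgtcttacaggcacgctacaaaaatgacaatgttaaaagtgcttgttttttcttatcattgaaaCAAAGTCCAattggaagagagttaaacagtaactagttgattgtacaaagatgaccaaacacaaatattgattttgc
Cyp2c67: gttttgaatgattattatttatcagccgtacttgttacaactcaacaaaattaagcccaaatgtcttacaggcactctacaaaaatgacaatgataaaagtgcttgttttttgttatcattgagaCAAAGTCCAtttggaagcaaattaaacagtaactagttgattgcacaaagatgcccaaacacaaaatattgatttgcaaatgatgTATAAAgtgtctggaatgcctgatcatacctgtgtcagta
Cyp2a12: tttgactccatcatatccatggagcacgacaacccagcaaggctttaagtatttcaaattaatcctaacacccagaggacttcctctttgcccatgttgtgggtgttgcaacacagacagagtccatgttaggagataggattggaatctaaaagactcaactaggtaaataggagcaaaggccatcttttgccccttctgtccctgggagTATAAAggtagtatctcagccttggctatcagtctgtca
Cyp2b9: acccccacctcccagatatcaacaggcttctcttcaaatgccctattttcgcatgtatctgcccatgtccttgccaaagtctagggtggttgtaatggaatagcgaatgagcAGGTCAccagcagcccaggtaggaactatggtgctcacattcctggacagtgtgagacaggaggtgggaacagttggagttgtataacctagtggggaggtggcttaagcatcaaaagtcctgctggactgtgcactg

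Such windows were found in RefSeq for 40 of the 48 genes, 42 windows in all. They were matched by the symbol of the array, so a gene listed there under another symbol was missed. TATAAA was found in 18 of the 42 windows and in 12.4% of all 32851 windows of this length. AGGTCA was found in 10 of them, against 14% of all windows, and CAAAGTCCA in 6 of them, against 0.384%. These 6 were all Cyp2c genes: Cyp2c40, Cyp2c65, Cyp2c67, Cyp2c68, Cyp2c69 and Cyp2c70. Cyp2c40, Cyp2c67, Cyp2c68 and Cyp2c69 are close relatives that share probe sets, so these 6 windows need not be independent. In Cyp2c70 the motif spanned bases -64 to -56 before the start, next to an AGGTCA at -74 to -69 with which it did not overlap. TGTTTAC, a forkhead motif, was found in 5 windows (3.17% of all), and TTATGTAA, bound by the clock output factors Dbp, Tef and Hlf, in 0 (0.819% of all). Only these exact letters were searched on either strand, and at so low a share a count of 0 in 42 windows tells little. The windows of Cyp2c67 and Cyp2c68 were identical at 93% of 201 aligned bases, those of Cyp2a4 and Cyp2a5 at 98.4% of 249, and those of Cyp2b9 and Cyp2b13 at 99.2% of 250, while Cyp2b9 and Cyp2b10 shared 75.8% of 240. A match is a description of these letters and not a measured binding site.

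Most Cyp2 transcripts lay within a narrow range of the control level, with a lean towards lower values in miR-143DOX. Of the 33 genes tested, 23 lay below 0 (69.7%), against 47.6% of all genes tested. The median difference (miR-143DOX minus control, log2) was -0.10 for the Cyp2 genes and 0.01 for all genes tested. Over all 44 genes with probe sets of their own, bright or dim, 30 lay below 0 and the median was -0.09. The lean was not shared by all animals. The median deviation of the 33 genes from their own means was 0.06, 0.07 and 0.05 in controls 1, 2 and 3, and -0.07, 0.07 and 0.01 in miR-143DOX 1, 2 and 3. MiR-143DOX 1 was thus the only array below 0, and it held the lowest value of 12 of the 33 genes. Without that array the median difference was -0.04, and without it and control 1 together -0.02.

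No Cyp2 gene passed the test over all genes at 5% false discovery rate (limma's moderated test with Benjamini-Hochberg adjustment), as did 0% of all genes, and the smallest adjusted p of a Cyp2 gene was 0.9997. At an unadjusted p under 0.05, 1 Cyp2 gene was higher (3.03%, against 1.38% of all genes) and 3 were lower (9.09%, against 1.68%), together 4 of 33 against 3.06% of all genes. They were Cyp2c55 on the high side and Cyp2c70, Cyp2a12 and Cyp2c68 on the low side. The count was 7 without miR-143DOX 3 and 2 without miR-143DOX 2. The share of all genes in those 2 settings is not given here, so these counts cannot be set against it. The 2 groups did not overlap for 6 of 33 genes, against 7.13% of all genes: 1 higher (3.4% of all) and 5 lower (3.73% of all), the last being Cyp2a12, Cyp2c68, Cyp2c70, Cyp2d22 and Cyp2j6. The 95% interval of the difference excluded a change of 1.5-fold in either direction for 20 of the 33 genes and one of 2-fold for 29, all but Cyp2b9, Cyp2b10, Cyp2c39 and Cyp2d13.

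**Figure D1:**
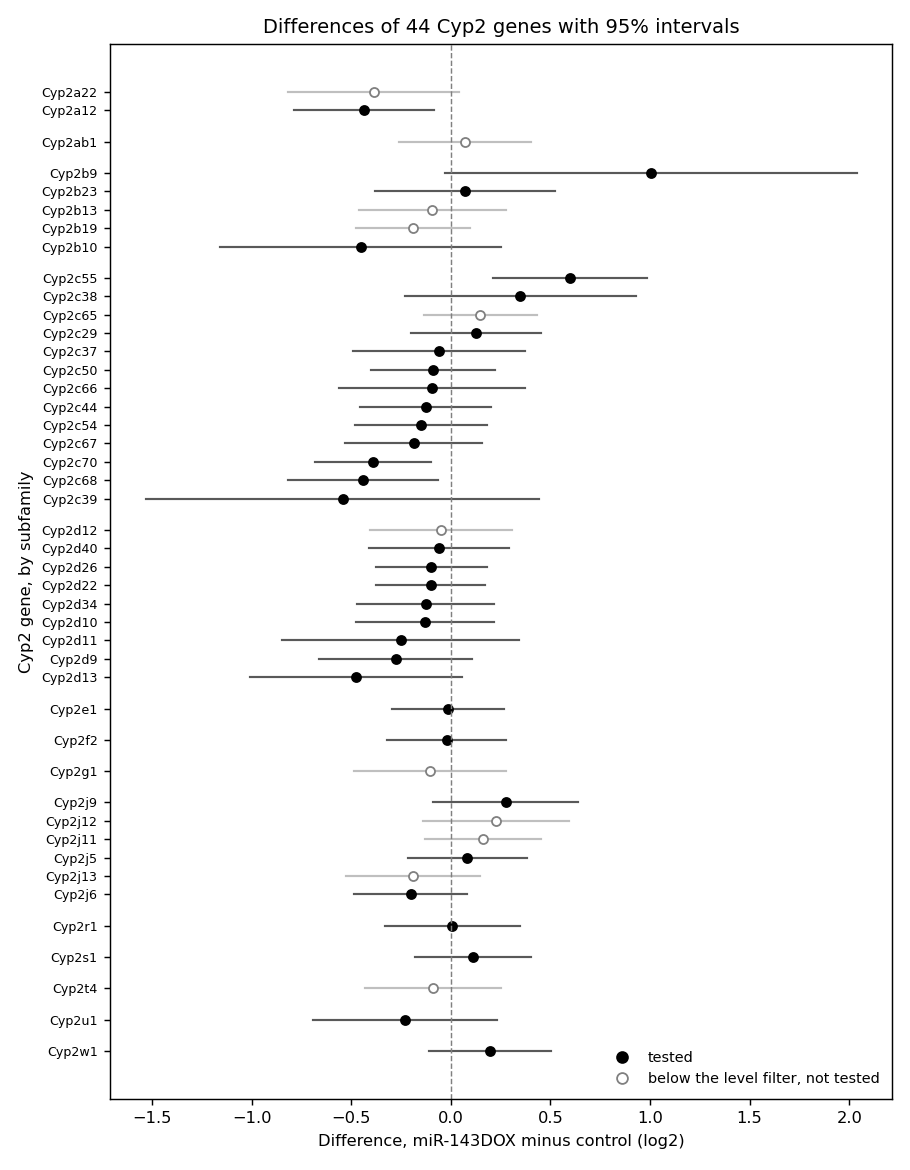
Difference between miR-143DOX and control (x axis, log2) for each of the 44 Cyp2 genes with probe sets of their own (y axis, grouped by subfamily). Points are fitted differences, bars their 95% intervals from 3 arrays per group, and open points the 11 genes too dim to be tested. Only the intervals of Cyp2c55, Cyp2c70, Cyp2a12 and Cyp2c68 among the tested genes leave out 0.

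The Cyp2c subfamily is the largest in the mouse and includes enzymes that turn arachidonic acid into epoxides. Its 12 tested genes ran from -0.54 for Cyp2c39 to 0.60 for Cyp2c55, with a median of -0.11, 9 below 0 and 3 above. In RefSeq's order of Cyp2c genes along the chromosome, Cyp2c55 comes first and Cyp2c70 last but one, before Cyp2c44 (now Cyp2c23 in RefSeq). The order gives no distances, so it does not show that Cyp2c44 lies in the same row as the others.

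Cyp2c55, an arachidonic acid hydroxylase that CAR and PXR can induce, was higher in miR-143DOX. It measured 5.65, 5.95 and 6.29 in controls 1, 2 and 3, and 6.38, 6.77 and 6.52 in miR-143DOX 1, 2 and 3. All 3 miR-143DOX mice stood above all 3 controls, though miR-143DOX 1 and control 3 were close. The difference was 0.60 with a standard error of 0.18 (95% interval 0.21 to 0.98), or 1.51-fold, at limma's unadjusted p = 0.0058 and adjusted p = 0.9997. The gene was dim in this preparation, and 8 of its 10 probe sets lay above 0.

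Cyp2c70, which makes the muricholic acids that set mouse bile apart from human bile, was lower. It measured 12.82, 12.87 and 12.84 in controls 1, 2 and 3, and 12.50, 12.28 and 12.58 in miR-143DOX 1, 2 and 3. The controls lay close together, and every miR-143DOX mouse was below them. The difference was -0.39 with a standard error of 0.13 (95% interval -0.68 to -0.10), at limma's unadjusted p = 0.0131 and adjusted p = 0.9997. The difference ran across the transcript: all 9 probe sets lay below 0, from -0.53 to -0.22, and 8 of the 9 separated the groups. They read the same animals and make up the mean of the gene, so they add no independent evidence. The share of all probe sets that separate the groups is not given here.

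Cyp2c68 measured 10.34, 10.75 and 10.30 in controls 1, 2 and 3, and 9.73, 10.20 and 10.14 in miR-143DOX 1, 2 and 3. The groups did not overlap, with miR-143DOX 1 the lowest. The difference was -0.44 with a standard error of 0.17 (95% interval -0.82 to -0.07), at limma's unadjusted p = 0.0247 and adjusted p = 0.9997. All 4 probe sets of Cyp2c68 lay below 0, from -0.85 to -0.22. Its near-copy Cyp2c67, whose upstream sequence is shown above, differed by -0.19 (standard error 0.16), and its groups overlapped. The 9 probe sets shared by Cyp2c40, Cyp2c67, Cyp2c68 and Cyp2c69 averaged 11.92, 12.01 and 11.58 in the controls and 11.59, 11.82 and 11.73 in miR-143DOX, a difference of -0.12 with a standard error of 0.15. Probe sets assigned to one of these genes can still catch transcripts of the others, so the split between them is uncertain.

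Cyp2c39, an enzyme that hydroxylates retinoic acid, had the lowest difference of the subfamily, and 1 animal set it. It measured 10.19, 10.48 and 9.92 in controls 1, 2 and 3, and 10.74, 8.28 and 9.94 in miR-143DOX 1, 2 and 3. MiR-143DOX 2 was far below all others, while miR-143DOX 1 was the highest of the 6. The difference of -0.54 had a standard error of 0.45, and it turned to 0.14 without miR-143DOX 2. Without miR-143DOX 1 it was -1.09, at an unadjusted p under 0.05. The low value was uneven along the gene. In miR-143DOX 2 the first probe set read 4.12 against 6.71 to 7.47 in the other arrays, the second 7.19 against 9.93 to 10.96, and the last 8.74 against 10.66 to 11.82. The remaining pair read 11.31, against 11.39 to 12.54, and 10.02, against 10.46 to 11.07, so that this array was the lowest at every probe set. The neighbouring Cyp2c38 was high in the same animal, at 9.28, with 8.43, 8.96 and 8.20 in the controls and 9.13 and 8.22 in miR-143DOX 1 and 3.

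Other enzymes of this subfamily, several of them pericentral, showed small differences with overlapping groups. Cyp2c29, an epoxygenase, measured 11.39, 11.79 and 11.80 in the controls and 11.69, 11.87 and 11.80 in miR-143DOX, a difference of 0.13 (95% interval -0.20 to 0.45). Cyp2c37 measured 10.97, 10.72 and 10.28 in the controls and 10.45, 10.94 and 10.39 in miR-143DOX, a difference of -0.06 (-0.49 to 0.37). Cyp2c44, another epoxygenase, measured 12.19, 12.20 and 11.98 in the controls and 11.83, 11.91 and 12.25 in miR-143DOX, a difference of -0.13 (-0.45 to 0.20). The intervals of all 3 leave out a change of 1.5-fold. Cyp2c50, Cyp2c54 and Cyp2c66 differed by -0.09, -0.15 and -0.10, and Cyp2c65, too dim to be tested, by 0.15.

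**Figure D2:**
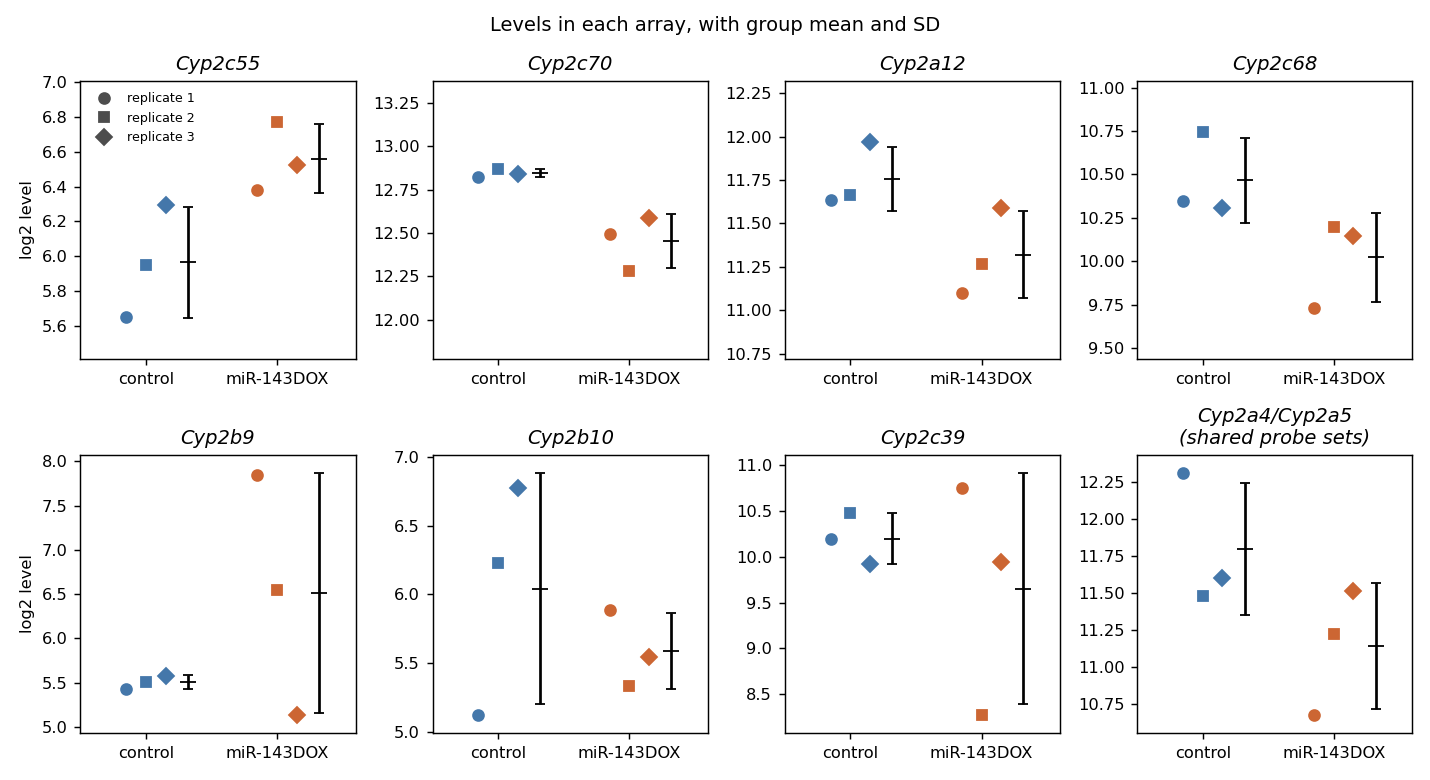
Level of 7 Cyp2 genes and of the probe sets shared by Cyp2a4 and Cyp2a5 (y axis, log2) in each array, by group; the symbol gives the replicate number and the bar the group mean with its SD (n = 3). Cyp2c55, Cyp2c70, Cyp2a12 and Cyp2c68 separate the groups, while Cyp2b9 and Cyp2c39 differ most within miR-143DOX, from 5.14 to 7.85 and from 8.28 to 10.74.

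In the Cyp2a subfamily the values lay lower in miR-143DOX, in probe sets of single genes and in shared ones. Cyp2a12, which hydroxylates bile acids and testosterone, measured 11.63, 11.67 and 11.97 in controls 1, 2 and 3, and 11.10, 11.27 and 11.59 in miR-143DOX 1, 2 and 3. Every miR-143DOX mouse was below every control, although the highest, 11.59, was close to the lowest control. The difference was -0.44 with a standard error of 0.16 (95% interval -0.79 to -0.08), at limma's unadjusted p = 0.0196 and adjusted p = 0.9997. The 5 probe sets did not move alike. The brightest, at 13.76 to 13.87 in the controls and 13.76 to 13.91 in miR-143DOX, differed by 0.02, and the dimmest by -1.09. Cyp2a22, a neighbour below the level that was tested, differed by -0.39, and its 3 probe sets all lay below 0.

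Cyp2a4, a female-biased steroid hydroxylase, and Cyp2a5, the hydroxylase of coumarin and nicotine, could not be told apart, since all 9 of their probe sets named both. Their mean was 12.31, 11.48 and 11.60 in controls 1, 2 and 3, and 10.68, 11.23 and 11.52 in miR-143DOX 1, 2 and 3. Control 1 stood above the rest and miR-143DOX 1 below, and the groups overlapped at a single pair, control 2 and miR-143DOX 3. All 9 probe sets lay below 0, from -0.95 to -0.36. The difference was -0.66 with a standard error of 0.25 (95% interval -1.20 to -0.11), or 1.58-fold lower, at limma's unadjusted p = 0.0230 and adjusted p = 0.9995 in a fit with all shared probe sets added. It was -0.40 without control 1, -0.43 without miR-143DOX 1 and -0.17 without both.

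Cyp2b9 and Cyp2b10 differed widely between animals. Cyp2b9, a steroid hydroxylase of female liver, measured 5.43, 5.51 and 5.58 in controls 1, 2 and 3, and 7.85, 6.55 and 5.14 in miR-143DOX 1, 2 and 3. The first pair of miR-143DOX mice lay above all controls and miR-143DOX 3 below all of them. All 7 probe sets lay above 0, from 0.22 to 1.66. The difference was 1.004 (2.01-fold), with a standard error of 0.47 and a 95% interval of -0.03 to 2.04. Limma gave an unadjusted p of 0.0562 and an adjusted p of 0.9997. The difference was 0.34 without miR-143DOX 1 and 1.69 without miR-143DOX 3. Its unadjusted p was under 0.05 without miR-143DOX 3, with the brightest probe set, with array weights and with the replicate block described below. Cyp2b13, also of female liver, was dim throughout, at 4.01, 3.76 and 4.32 in the controls and 4.15, 3.91 and 3.76 in miR-143DOX. Its upstream window is nearly the same as that of Cyp2b9. Cyp2b13 lay below the level that was tested, so whether it shared the high value of miR-143DOX 1 could not be judged.

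Cyp2b10, the standard target gene of CAR, had a difference of opposite sign. It measured 5.12, 6.23 and 6.77 in controls 1, 2 and 3, and 5.89, 5.34 and 5.54 in miR-143DOX 1, 2 and 3. Control 1 was the lowest of all 6 arrays, so the groups overlapped. The difference was -0.45 with a standard error of 0.32 (95% interval -1.16 to 0.25), although all 9 probe sets lay below 0. It was -0.91 without control 1 (limma's unadjusted p = 0.00101, adjusted p = 0.912) and -0.09 without control 3. Its unadjusted p was also under 0.05 with the clock covariate described below and without control 1 and miR-143DOX 1 together (a difference of -1.06, adjusted p = 0.191). Cyp2b23 differed by 0.07, and the skin gene Cyp2b19, too dim to be tested, by -0.19.

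All 8 tested Cyp2d genes lay below 0, with a median of -0.13, and 0 of them had an unadjusted p under 0.05. The Cyp2d genes form 1 row of near-copies, so probe sets of neighbours may read the same transcripts. Cyp2d13 had the lowest difference, -0.48 with a standard error of 0.24. It measured 11.03, 10.78 and 11.42 in the controls and 10.01, 10.77 and 11.04 in miR-143DOX, so the groups overlapped, and it was -0.18 without miR-143DOX 1. Its unadjusted p was under 0.05 without control 2 (-0.63) and without miR-143DOX 3 (-0.69). Cyp2d9, a testosterone hydroxylase of male liver, measured 10.66, 10.56 and 11.05 in the controls and 10.17, 10.63 and 10.64 in miR-143DOX, a difference of -0.28 (95% interval -0.66 to 0.11). Cyp2d40 had the smallest difference, -0.06, at 8.80, 9.28 and 9.12 in the controls and 9.04, 9.17 and 8.80 in miR-143DOX. MiR-143DOX 1 was again low, with a median deviation over the 8 genes of -0.30, against 0.01 and 0.02 in miR-143DOX 2 and 3 and 0.14, -0.04 and 0.13 in the controls. Cyp2d22 separated the groups by a small difference, at 11.09 ± 0.01 against 10.99 ± 0.07 in miR-143DOX (SD, n = 3 each).

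**Figure D3:**
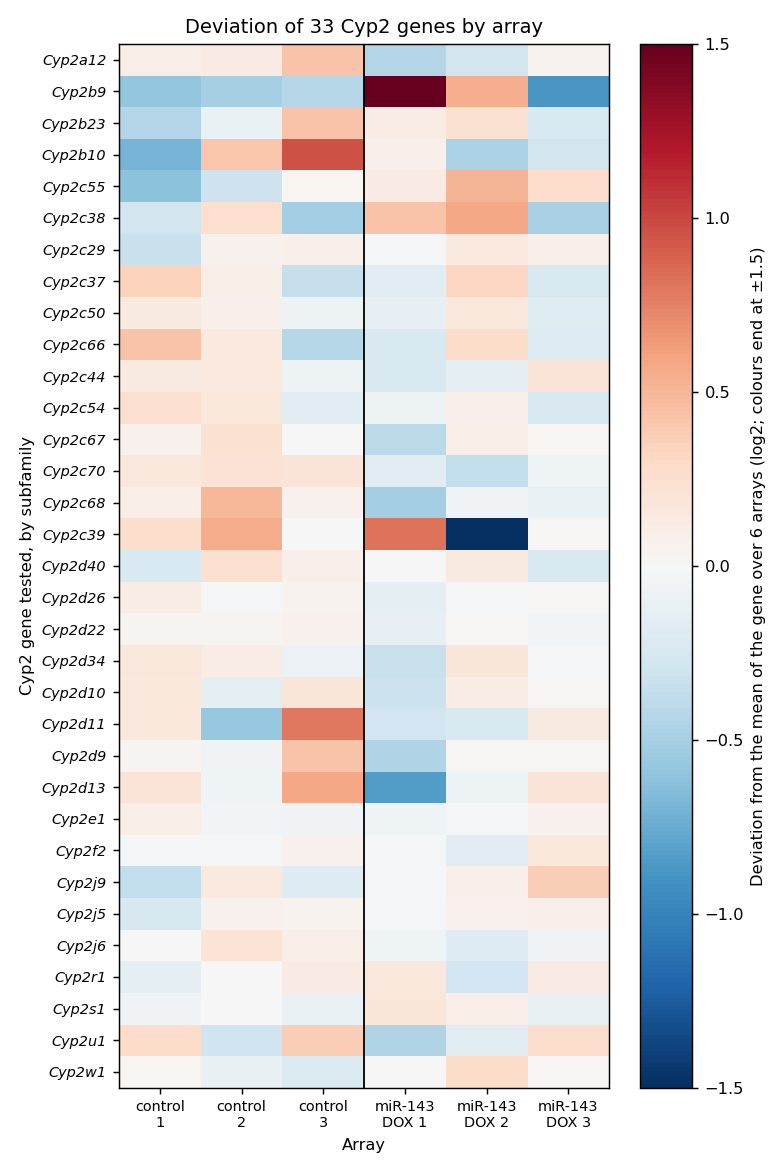
Deviation of each of the 33 tested Cyp2 genes (rows, by subfamily) from its own mean over the 6 arrays (columns), in log2; colours end at 1.5 to either side. Red is above and blue below the mean. The strongest colours are Cyp2b9 in miR-143DOX 1 and Cyp2c39 in miR-143DOX 2, and the Cyp2d rows other than Cyp2d40 are blue in miR-143DOX 1.

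The Cyp2j genes did not lean one way. Cyp2j5, an arachidonic acid epoxygenase of liver and kidney, measured 12.16, 12.47 and 12.45 in the controls and 12.38, 12.47 and 12.48 in miR-143DOX, a difference of 0.08 (95% interval -0.22 to 0.38). Cyp2j6 measured 9.60, 9.80 and 9.69 in the controls and 9.54, 9.40 and 9.55 in miR-143DOX. Its groups were separate, with a difference of -0.20 (-0.49 to 0.08). Cyp2j9 measured 7.16, 7.67 and 7.33 in the controls and 7.49, 7.60 and 7.89 in miR-143DOX, a difference of 0.28 (-0.09 to 0.64), and 10 of its 11 probe sets lay above 0. Cyp2j11, Cyp2j12 and Cyp2j13 were too dim to be tested.

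Cyp2e1 and Cyp2f2, the best known zonal enzymes of the family, were level between the groups. Of 5 tested Cyp2 genes listed as pericentral, Cyp2e1 among them, 4 lay below 0 and 1 above, with a median of -0.06. Cyp2a5, also on that list, was read only with Cyp2a4, at -0.66. Cyp2e1, the ethanol-oxidising P450 of pericentral hepatocytes, measured 13.18, 13.04 and 13.03 in the controls and 13.02, 13.06 and 13.14 in miR-143DOX. Its difference was -0.01 with a standard error of 0.13 (95% interval -0.29 to 0.27), or 1.01-fold. Cyp2f2, the naphthalene-oxidising P450 of periportal hepatocytes, measured 12.69, 12.69 and 12.77 in the controls and 12.68, 12.53 and 12.87 in miR-143DOX, a difference of -0.02 (-0.32 to 0.28). These intervals leave out a change of 1.5-fold for both genes.

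Of the subfamilies with a single gene, Cyp2r1 encodes a vitamin D hydroxylase. It measured 7.25, 7.37 and 7.50 in the controls and 7.54, 7.09 and 7.50 in miR-143DOX, a difference of 0.01 (95% interval -0.33 to 0.35). Cyp2u1, a fatty acid hydroxylase, measured 9.04, 8.47 and 9.14 in the controls and 8.32, 8.61 and 9.03 in miR-143DOX, a difference of -0.23 (-0.69 to 0.23) with overlapping groups. All 9 probe sets of Cyp2u1 lay below 0. Cyp2s1 and Cyp2w1, known mainly from tissues other than liver, differed by 0.11 and 0.20. Cyp2g1 of the nasal mucosa, Cyp2t4 and Cyp2ab1 were below the level that was tested, at differences of -0.11, -0.09 and 0.07. No detection call was used, so whether these dim genes were above background is unknown.

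Probe sets of 1 gene often lay on both sides of 0. In 11 of the 44 genes all probe sets lay on the same side of 0: Cyp2a22, Cyp2b10, Cyp2b9, Cyp2c38, Cyp2c67, Cyp2c68, Cyp2c70, Cyp2d11, Cyp2d13, Cyp2d9 and Cyp2u1. The share over all genes was not computed, and probe sets of 1 gene read the same animals, so they are not independent. Cyp2a22 had only 3 probe sets, and Cyp2c67, Cyp2c68 and Cyp2d11 had 4 each. In Cyp2c55 the probe sets ran from -0.39 to 1.82, and 4 of the 10 separated the groups, all with higher values in miR-143DOX. How many probe sets of all genes separate the groups is not given here. In Cyp2e1 they ran from -0.30 to 0.64, with 7 above 0 and 6 below. When each gene was read by its brightest probe set alone, the median of the tested Cyp2 genes was 0.01, against 0.04 over all genes.

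**Figure D4:**
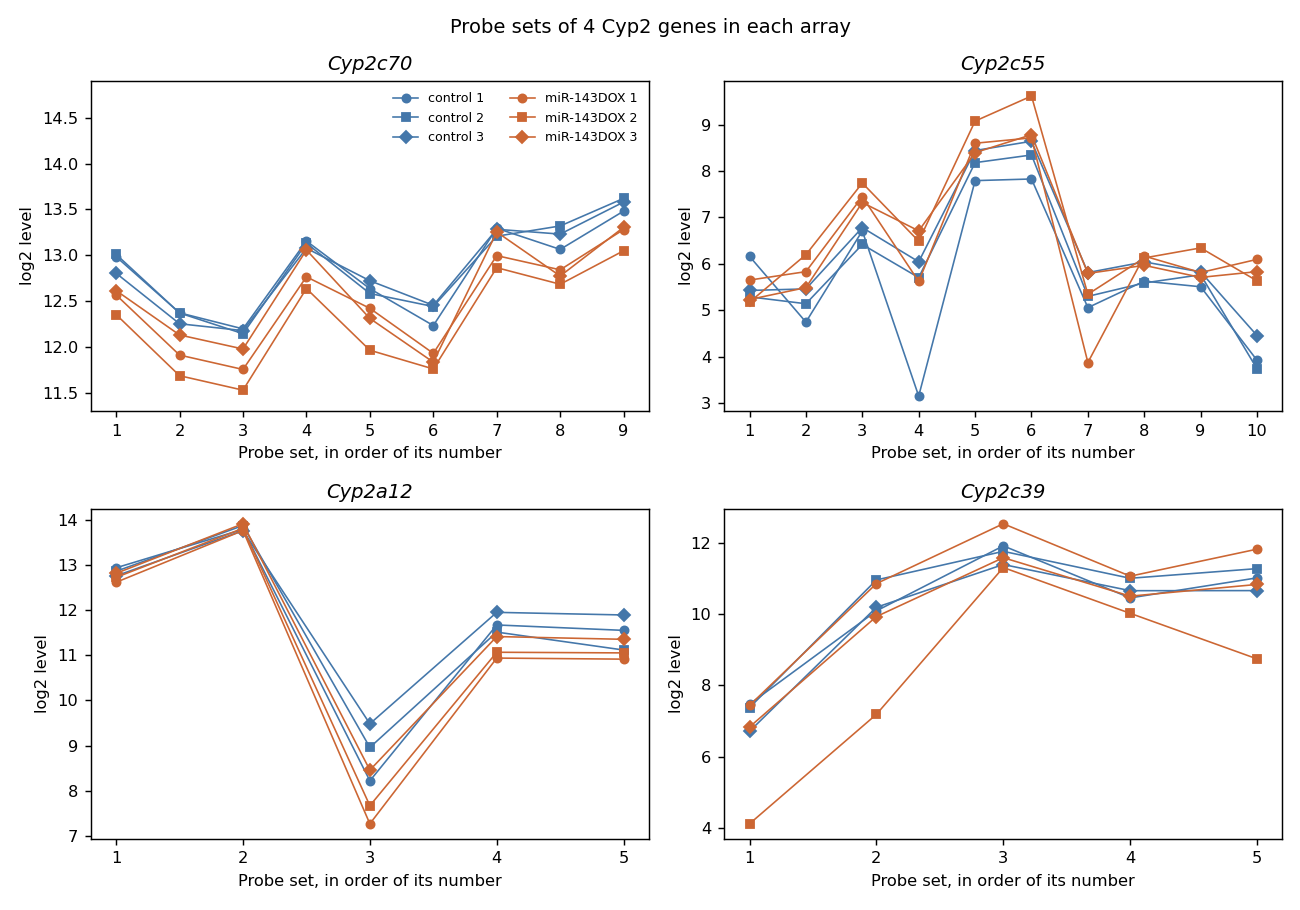
Level of each probe set (x axis, in order of its number; y axis, log2) of Cyp2c70, Cyp2c55, Cyp2a12 and Cyp2c39, with 1 line per array. The miR-143DOX lines of Cyp2c70 lie below the controls at 8 of 9 probe sets, the groups of Cyp2a12 are separate at 1 of 5 probe sets and level at the brightest, and miR-143DOX 2 drops most at the first, second and last probe sets of Cyp2c39.

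The genes around the Cyp2 enzymes were given by lists of related genes, and 0 of their members passed 5% false discovery rate. Of 5 redox partners, 3 lay above 0 and 2 below. The reductase Por measured 11.40, 10.49 and 10.95 in controls 1, 2 and 3, and 9.84, 10.52 and 10.94 in miR-143DOX 1, 2 and 3, a difference of -0.51 with a standard error of 0.27. As with the shared Cyp2a4 and Cyp2a5 probe sets, control 1 was the highest and miR-143DOX 1 the lowest array. Pgrmc1, a haem-binding partner of P450 enzymes, differed by 0.64 (standard error 0.35), and control 2 alone was low, at 9.97 against 11.59 to 11.79 in the other arrays. Of 11 haem synthesis and breakdown genes, 6 lay above 0 and 5 below. Ranked by p, the first members were Blvrb, with a log2 difference of 0.28 (standard error 0.20), and Alad, with one of 0.18 (standard error 0.13), both with overlapping groups.

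Of 18 regulators of Cyp2 genes, 10 lay above 0 and 8 below, and 0 had an unadjusted p under 0.05. CAR (Nr1i3) measured 9.46, 8.58 and 9.20 in the controls and 8.87, 9.26 and 9.29 in miR-143DOX, a difference of 0.06 (95% interval -0.40 to 0.52). PXR (Nr1i2) measured 9.36, 9.28 and 9.09 in the controls and 9.54, 9.03 and 8.91 in miR-143DOX, a difference of -0.08 (-0.46 to 0.30). The members with the smallest p-values were Rxra, the partner of both receptors, with a difference of -0.22 (standard error 0.14), and Bcl6, a repressor of male liver, with one of -0.54 (standard error 0.35). Of 22 tested targets of CAR and PXR outside the Cyp2 family, 12 lay above 0 and 10 below, with a median of 0.05. Among them Aldh1a7 was at 0.32 and Gadd45b at 0.31. Of 8 tested Cyp1 and Cyp3 genes, 3 lay above 0 and 5 below. Cyp1a2, the pericentral P450 that oxidises caffeine, measured 11.89, 11.90 and 11.89 in the controls and 11.15, 11.45 and 11.61 in miR-143DOX. Its difference was -0.49 with separate groups (limma's unadjusted p = 0.0060, adjusted p = 0.9997). Cyp3a13 was at -0.25, also with separate groups.

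Clock genes differed widely between animals within each group, and no group difference among them passed the test. Dbp, a clock output factor known to drive Cyp2a4 and Cyp2a5, measured 10.08, 8.06 and 8.04 in controls 1, 2 and 3, and 6.99, 8.14 and 9.35 in miR-143DOX 1, 2 and 3. Arntl, the core activator, ran opposite, at 5.56, 7.80 and 7.19 in the controls and 8.24, 7.25 and 6.35 in miR-143DOX. The arrays at the extremes of Dbp, control 1 and miR-143DOX 1, were also those at the extremes of Por and of the shared Cyp2a4 and Cyp2a5 probe sets. With Dbp minus Arntl as a covariate, the shared probe sets differed by -0.46 with a standard error of 0.14, Cyp2b10 by -0.67, Cyp2c55 by 0.55, Cyp2c70 by -0.39, Cyp2a12 by -0.40 and Cyp2c68 by -0.43. Hlf, related to Dbp, differed by -0.29 and separated the groups, and the nuclear receptor Nr1d1 differed by 0.33. The part of the clock in the Cyp2 differences was not tested beyond this covariate.

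**Figure D5:**
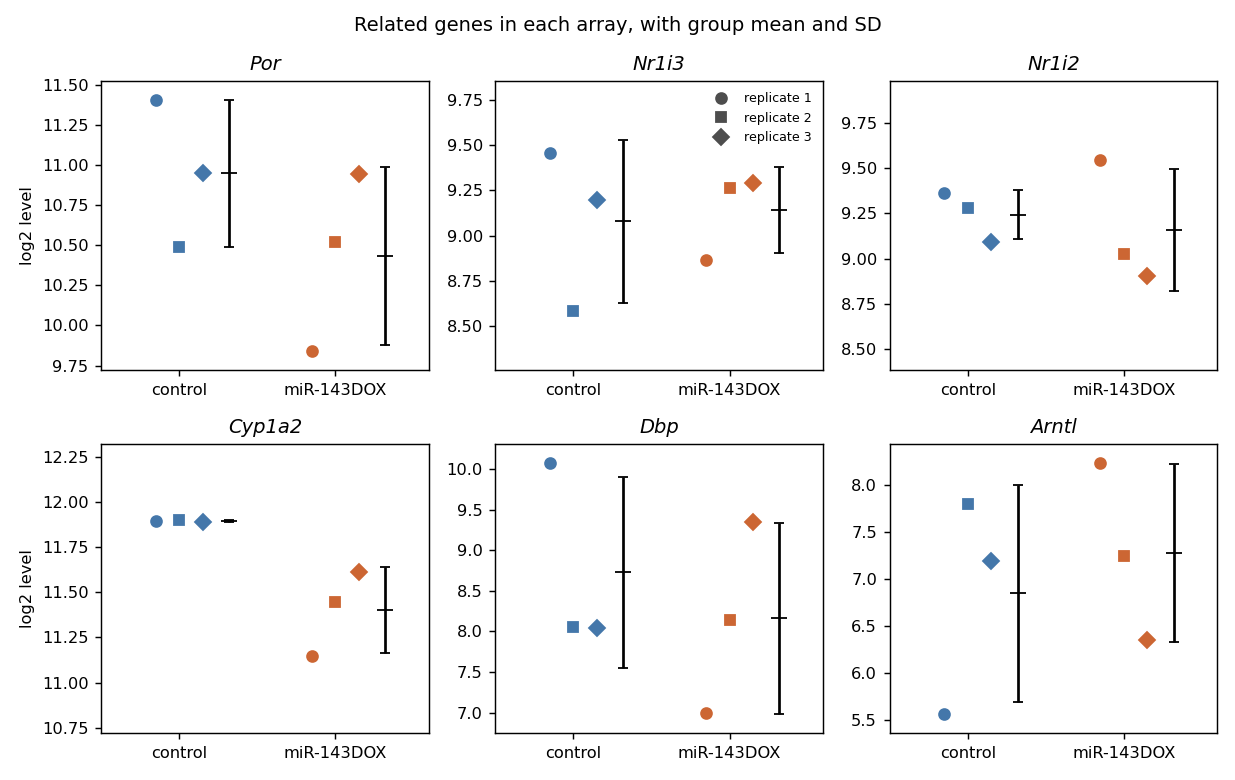
Level of Por, CAR (Nr1i3), PXR (Nr1i2), Cyp1a2, Dbp and Arntl (y axis, log2) in each array, by group, with the symbol for the replicate number and the bar for the group mean and SD (n = 3). Cyp1a2 alone among the 6 separates the groups, and control 1 and miR-143DOX 1 hold the highest and the lowest value of Dbp and of Por.

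The preparations carried the markers of hepatocytes at high level, with 9 marker genes between 10.2 and 14.4, a list mean of 12.8 to 13.1 in the controls and 12.7 to 12.9 in miR-143DOX, and a median difference of 0.01. One of them, Serpina1a, a secreted protease inhibitor read by 1 probe set only, differed by -0.98 (limma's unadjusted p = 0.0218), with overlapping groups. The list mean of 8 sinusoidal endothelium markers was 7.70 to 7.82 in the controls and 7.39 to 7.88 in miR-143DOX, with 8 of 8 below 0 and a median of -0.11, and Clec4g among them differed by -0.37 (limma's unadjusted p = 0.0245) with separate groups. Kupffer cell markers had a median of 0.06, stellate cell and fibroblast markers one of 0.04 and cholangiocyte markers one close to 0, with Spp1 at -0.32 (limma's unadjusted p = 0.0379), while lymphocyte and neutrophil markers, at list means up to 5.10 and 5.01, had medians of 0.13 and 0.08. In such bulk samples fewer cells of a type cannot be told from less RNA per cell. The part of other cells in the Cyp2 values was not tested.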

How the data were processed

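RNA of hepatocytes from 6 mice was read on Affymetrix arrays, 1 per mouse. The values the authors deposited are on a log scale, taken as log2 since they run from 1.60 to 15.2. Partek is named, with no version, per the submitters' processing notes; background correction, normalization and summary are not given in the sources used here. Of 234873 probe sets, 212097 named 1 gene, 4475 several and 18301 none. The log2 values were quantile normalized, and the probe sets naming 1 gene were averaged. The 25% of genes with the lowest mean (under 5.06, 5104 genes) were left out, and the other 15312 were fitted with limma 3.58.1 in R 4.3.3 (lmFit, eBayes, group only, two-sided, Benjamini-Hochberg adjustment). The labels call the arrays biological replicates, and their small number limits the precision. The members, gene lists and tests were chosen with earlier results of these data known. Values in every array are given for members at an unadjusted p under 0.05, the extremes of subfamilies with 3 or more tested genes, and a fixed set; of each related list the 2 genes with the smallest p are named, with Nr1i2, Nr1i3, Por, Dbp and Arntl. Cyp2c38 and Cyp2d22 were picked after their values were seen. Alternatives were other scalings, filters, probe set summaries, variance models, array weights, the replicate block, a clock covariate and arrays left out; leaving out control 1 and miR-143DOX 1 together, and adding shared probe sets, came after seeing the data. Tested on 10 simulated data sets of 15312 genes for this comparison, the fit recovered 90.2% of 2-fold and 100% of 4-fold changes. Of the genes called there, 5.43% were false. Each set held 200 changed genes, and its noise was independent between arrays, with variances drawn from limma's prior. The real arrays need not meet these settings, so the shares do not say which Cyp2 changes could be found here. Promoter windows came from RefSeq (GRCm38.p6) by symbol and were aligned with Biopython 1.88.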

Additional observations from a re-analysis of the deposited data

How the results depend on the processing

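The count of Cyp2 genes past 5% false discovery rate was 0 under the main settings and under all 19 alternatives, and the lowest adjusted p of a Cyp2 gene was 0.191 (Cyp2b10, without control 1 and miR-143DOX 1 together). The count at an unadjusted p under 0.05, main value 4, was 2 with the brightest probe set and 2 to 7 with 1 array left out. The share of all genes under that p in each setting is not given here, so the counts may follow it. Cyp2c55 kept an unadjusted p under 0.05 in 18 of 19 alternatives, Cyp2c70 in 17, and Cyp2a12 and Cyp2c68 in 14 each. The median difference, main value -0.0982, was 0.006 with the brightest probe set, -0.0208 without control 1 and miR-143DOX 1, and -0.1434 to -0.0434 with 1 array left out. Of 377 values of single genes, 29 changed sign, and 10 of 20 genes had no such change. With the median of the probe sets Cyp2d40 was 0.17 and Cyp2f2 0.017. With the brightest probe set Cyp2a12 was 0.022, Cyp2c37 0.11, Cyp2c39 0.12, Cyp2e1 0.028 and Cyp2f2 0.019. Array weights gave Cyp2r1 -0.026, and the clock covariate gave Cyp2e1 0.018 and Cyp2r1 -0.022. Without control 1 and miR-143DOX 1 together Cyp2c37 was 0.17, Cyp2e1 0.060, Cyp2r1 -0.14 and Cyp2u1 0.015. With 1 array left out, Cyp2c29 ranged from -0.0085 to 0.20, Cyp2c37 from -0.25 to 0.096, Cyp2c39 from -1.09 to 0.14, Cyp2d40 from -0.19 to 0.045, Cyp2e1 from -0.048 to 0.034, Cyp2f2 from -0.11 to 0.058, Cyp2j5 from -0.016 to 0.14 and Cyp2r1 from -0.076 to 0.15. The causes of these changes were not tested. Of the 20 genes followed through the alternatives, none changed sign with the deposited values, with arrays centred on the common median, or with either other filter on dim genes. Cyp2b9 and Cyp2b10 were not among the genes fitted when the lowest 50% of genes was left out.

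Whether the replicate numbers pair the arrays is not known. Deviations from the group means correlated at 0.107, 0.0468 and 0.296 for same-numbered arrays. For arrays with different numbers they correlated at -0.257 to 0.151. Deviations from means of only 3 arrays cannot decide the question. With the replicate block the count at an unadjusted p under 0.05 was 7, with Cyp2b9, Cyp2c38 and Cyp2d13 added to the main 4. The share of all genes under that p with the block is not given here. The count past 5% false discovery rate was 0 and the median -0.0982. The block changed the call of no other Cyp2 gene. With 3 arrays per group the precision is limited, and signal over background could not be assessed without detection calls.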
